A study of Mus musculus with 20 samples.

Results

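The liver makes most of the proteins that clot blood, the inhibitors that hold clotting in check and most of the complement proteins of plasma. A list of 35 genes for such proteins was followed in male mouse liver after phenobarbital. A probe set belonged to the list when its platform gene symbol was 1 of the 35, and a gene with several was represented by its brightest probe set, averaged over all 20 arrays. The table used held 34 of the 35 genes, out of 18193 genes with a symbol, and all 34 were among the 16054 genes tested. They comprised 13 genes of clotting and the contact system, 7 of inhibitors, anticoagulants and plasminogen, and 14 of complement. C3, the central complement protein, was not analysed here. All 34 lay above array background on all 20 arrays, and 28 of them rested on 1 probe set.

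The study dosed CD-1 males, an outbred stock, by mouth every day for 28 or 90 days, and profiled a piece of the left lateral liver lobe from each. The 4 groups were phenobarbital sodium (PB) for 28 days, its methylcellulose vehicle (CMC) for 28 days, PB for 90 days and CMC for 90 days. Each group held 5 mice with 1 array each. The PB dose was 80 mg/kg/day, and CMC mice received the vehicle at a PB dose of 0 mg/kg/day. PB, a sedative, activates the constitutive androstane receptor of hepatocytes. Values are log2 intensities after RMA, an array normalization that equalises the arrays and combines the probes of a probe set. Probe sets differ in how brightly they bind, so levels are compared between livers for 1 gene and never between genes. In whole tissue, fewer cells of a type and less RNA per cell cannot be told apart.

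Clotting is a chain in which each protease cuts and activates the next. Tissue factor with factor VII starts it in an injury, and factor XII with plasma kallikrein and kininogen starts it on foreign surfaces. Both routes meet at factor X, which with its cofactor factor V turns prothrombin into thrombin, and thrombin turns fibrinogen into fibrin. Antithrombin, heparin cofactor II, protein C and protein S restrain the chain, and plasmin, made from plasminogen, dissolves the clot. Complement is a second cascade, entered through antibodies, through sugar-binding lectins with their proteases, or through factor B, and it ends with a pore built from C5 to C9. Several of these genes are acute-phase genes: hepatocytes make more of fibrinogen and factor B in inflammation.

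The promoters of the fibrinogen genes and of the C8 alpha and beta genes are shown because these sets encode subunits of 1 protein, lie side by side in the genome and differed in how they moved together between livers. Each sequence is the 250 bases before the RefSeq gene start, from 5′ to 3′ on the gene's own strand, in GRCm38.p6. Capitals mark the letters GTTAAT, a core of the motif of hepatocyte nuclear factor 1, the letters CTGGGAA of the interleukin-6 response core, the letters TTGCNNAA of a C/EBP motif and the letters TTCCNGGAA of a STAT3 motif, on either strand.
Fgg (chr3:83007474-83007723, plus strand): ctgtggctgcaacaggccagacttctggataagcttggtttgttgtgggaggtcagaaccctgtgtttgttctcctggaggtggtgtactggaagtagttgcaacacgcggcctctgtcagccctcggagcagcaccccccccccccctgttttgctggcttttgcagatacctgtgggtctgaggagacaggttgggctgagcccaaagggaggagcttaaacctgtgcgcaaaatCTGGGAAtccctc
Fga (chr3:83025903-83026152, plus strand): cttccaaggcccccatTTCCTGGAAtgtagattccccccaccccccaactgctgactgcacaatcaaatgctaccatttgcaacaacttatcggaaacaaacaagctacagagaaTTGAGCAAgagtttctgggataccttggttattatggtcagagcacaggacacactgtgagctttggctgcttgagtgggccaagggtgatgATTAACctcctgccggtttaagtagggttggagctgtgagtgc
Fgb (chr3:83049864-83050113, minus strand): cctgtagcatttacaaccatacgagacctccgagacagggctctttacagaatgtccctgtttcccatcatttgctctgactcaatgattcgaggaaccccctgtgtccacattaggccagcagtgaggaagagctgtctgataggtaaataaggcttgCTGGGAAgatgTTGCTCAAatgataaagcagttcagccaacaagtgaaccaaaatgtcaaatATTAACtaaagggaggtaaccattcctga
C8a (chr4:104876399-104876648, minus strand): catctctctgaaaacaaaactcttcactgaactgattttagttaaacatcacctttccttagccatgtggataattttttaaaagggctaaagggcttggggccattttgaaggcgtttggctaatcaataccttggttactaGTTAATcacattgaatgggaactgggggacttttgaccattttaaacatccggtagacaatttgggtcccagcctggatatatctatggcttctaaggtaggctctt
C8b (chr4:104766067-104766316, plus strand): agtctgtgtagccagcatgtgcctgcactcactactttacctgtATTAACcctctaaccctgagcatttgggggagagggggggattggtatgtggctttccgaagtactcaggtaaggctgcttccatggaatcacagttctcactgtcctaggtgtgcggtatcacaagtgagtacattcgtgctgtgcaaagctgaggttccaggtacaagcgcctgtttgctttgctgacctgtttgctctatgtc
In the same build the genes span 83007724 to 83015056 (Fgg), 83026153 to 83033627 (Fga) and 83042246 to 83049863 (Fgb) on chromosome 3, and 104815679 to 104876487 (C8a) and 104766317 to 104804548 (C8b) on chromosome 4. The C8a window lies partly inside the gene as annotated, because the promoter table uses a more downstream start for it. RefSeq promoters were found for 26 of the 34 members. GTTAAT was present in 7 of them, or 26.9%, against 6.52% of 27025 promoters of the same length. TTGCNNAA was present in 6, or 23.1% against 9.55%, and CTGGGAA in 4, or 15.4% against 9.08%. TTCCNGGAA was present in 2, Fga and Pros1, or 7.69% against 0.914%. A pair of AGTTCA letters 4 bases apart on the same strand (both strands searched), 1 form of the site of the constitutive androstane receptor, was in 0 of the 26 windows and in 0.0111% of all promoters. In the printed set, Fga and Fgb hold both the GTTAAT core and a C/EBP motif, to which Fga adds the STAT3 motif and Fgb the CTGGGAA core. Fgg holds the CTGGGAA core alone, and C8a and C8b hold the GTTAAT core alone. These matches are letters in a window and no evidence of a factor's binding.

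No clotting, inhibitor or complement transcript changed with PB by the test across all genes. Each group was fitted with its own mean in limma, and a gene was called at a Benjamini-Hochberg adjusted p under 0.05 over the 16054 genes. At 28 days 0 of the 34 members were called, where 0.0498% of all genes were, and at 90 days again 0, where 0.143% of all genes were. With the effects of both durations averaged, 0 members were called, against 0.212% of all genes. The number of members with an unadjusted p under 0.05 was also 0 in each, against 2.86%, 4.53% and 6.6% of all genes at 28 days, at 90 days and in the average. No member had PB and CMC livers that did not overlap, while 0.542% of all genes were so separated at 28 days and 1.07% at 90 days. The PB treatment itself was plain in the same livers. Cyp2b10, the classical target of the receptor, averaged 10.93 ± 1.12 in PB livers and 6.03 ± 1.34 in CMC livers at 28 days (SD, n = 5 each), and it rose by 4.90 ± 0.62 on the log2 scale (SE, limma adjusted p = 0.000572). At 90 days it averaged 11.70 ± 0.67 in PB livers and 5.82 ± 1.11 in CMC livers (limma adjusted p = 2.79e-05).

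The intervals show how large a PB effect these data allow. In the average over both durations, the 95% interval of the PB effect lay within 0.5 log2 units of 0, or 1.41-fold, for 23 of 34 members. These were 9 of 13 clotting genes, 6 of 7 inhibitors and 8 of 14 complement genes. At 28 days 20 members and at 90 days 18 members were bounded as tightly, and every one of the 34 intervals included 0 in each comparison. The half-width in the average ran from 0.0948 log2 units for Fgg, the fibrinogen gamma chain, to 1.07 for Masp1, a protease of the lectin route. For Masp1 at 28 days the interval ran from -1.97 to 1.04 log2 units.

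**Figure D1:**
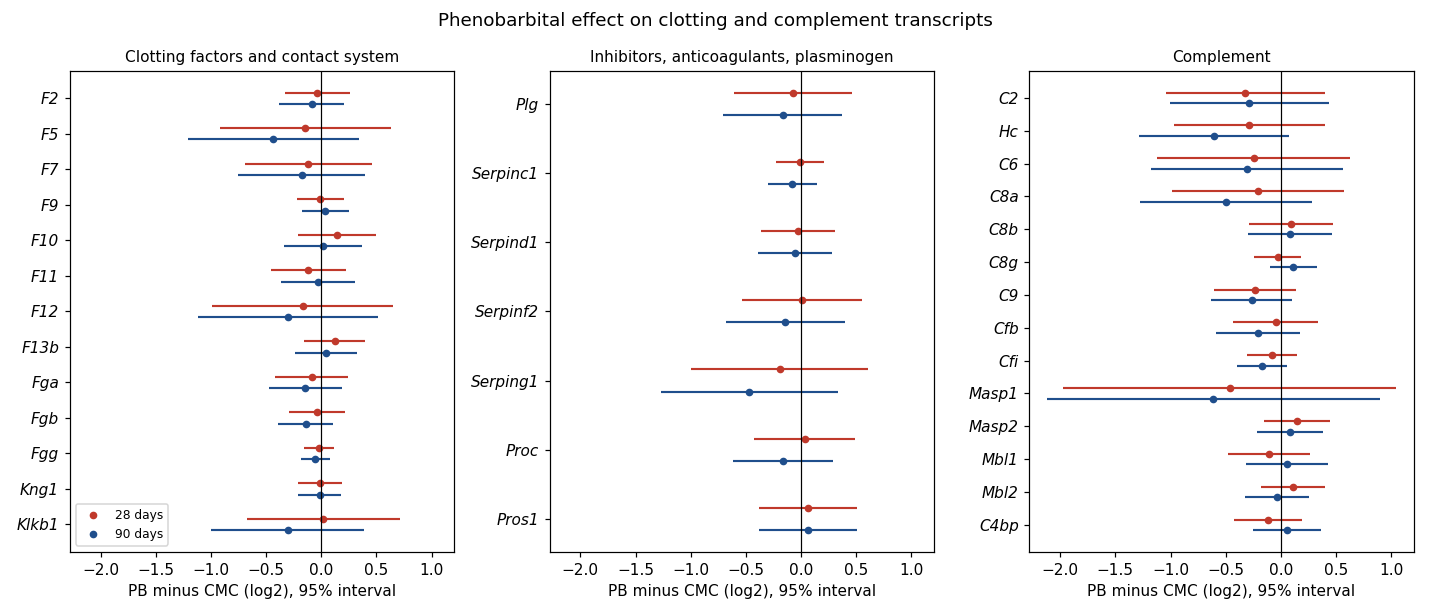
Fitted PB minus CMC difference on the log2 scale (x axis) with its 95% interval for each of 34 genes (rows), at 28 days in red and at 90 days in blue, in 3 panels by role. All intervals include 0, and they are narrowest for Fgg and widest for Masp1.

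Most members were slightly lower in PB livers by the fit, and the sign of the medians at 28 days depended on single arrays. At 28 days 9 members were above 0 and 25 below, with a median of -0.0428 against -0.00162 over all genes tested. At 90 days the count was again 9 above and 25 below, with a median of -0.141 against 0.0326 over all genes. Of all genes, 49.6% were above 0 at 28 days and 56.2% at 90 days. In the average, 8 members were above 0, where 55.8% of all genes were. By role, the average effect had a median of -0.0726 in clotting genes, -0.0656 in inhibitors and -0.127 in complement genes. Without PB 28 d replicate 5 and PB 90 d replicate 3, 28 of 34 members were above 0 at 28 days and the medians there turned to 0.109, 0.213 and 0.0307 in the same order of roles. Without CMC 28 d replicate 5 alone they were 0.0232, 0.0486 and -0.0382. At 90 days without the 2 low PB arrays, 12 members were above 0 and the medians were -0.0221, -0.00727 and -0.0744. No member was called with or without these arrays.

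Those arrays stood apart over all genes. In a principal component analysis of all genes, the leading axis (called the first component from here on) carried 55.6% of the variance. On it, PB 28 d replicate 5 scored -107.9 and PB 90 d replicate 3 scored -65.2, against -39.8 for the next array. The 75th percentile of their values was 6.62 and 6.81, the lowest of the 20. The 25th percentile was 4.26 and 4.12, the highest of the 20, so the middle range of values was narrower on these arrays. PB 28 d replicate 5 was the lowest of 20 livers for 22 of 34 members, or 64.7%, against 25.9% of all genes. The part of RNA quality in this was not tested.

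Factor V, the cofactor that speeds thrombin formation, had the smallest p of the clotting genes in the average PB effect. F5 measured 11.91, 11.50, 11.73, 12.18 and 10.20 in PB livers at 28 days, against 11.08, 11.95, 11.003, 11.93 and 12.28 in CMC livers. At 90 days F5 measured 12.10, 12.31, 10.37, 11.36 and 12.21 in PB livers, against 11.78, 12.41, 12.31, 11.87 and 12.15 in CMC livers. Replicate 5 at 28 days and replicate 3 at 90 days were the lowest PB livers, and the groups overlapped at both durations. The averaged difference was -0.29 ± 0.26 (SE), with an interval of -0.84 to 0.26 (limma adjusted p = 0.745), and 0.0379 without those 2 livers. F5 also had the largest SD of any clotting gene among vehicle livers, with 2 of the 5 CMC livers at 28 days near 11 and the other 3 near 12.

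The 3 fibrinogen genes, which encode the chains of 1 protein and lie together on chromosome 3, differed in the size of their spread between livers. Fga, the alpha chain, measured 14.26, 14.17, 14.24, 14.36 and 13.30 in PB livers at 28 days, against 14.08, 14.28, 13.82, 14.01 and 14.57 in CMC livers. Fgb, the beta chain, measured 14.61, 14.46, 14.58, 14.63 and 13.91 in PB livers, against 14.41, 14.56, 14.20, 14.39 and 14.81 in CMC livers. Fgg measured 14.64, 14.60, 14.61, 14.65 and 14.57 in PB livers, against 14.61, 14.60, 14.57, 14.53 and 14.87 in CMC livers. Replicate 5 was the lowest PB liver for all 3 chains and replicate 5 of CMC the highest of its group, but the gap below the other PB livers was wide for Fga and Fgb and slight for Fgg. Fgg was chosen for description after its values were seen.

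At 90 days Fga and Fgb were tighter in PB and in CMC livers. Fgg was tighter only in CMC livers, with an SD of 0.0448 against 0.135 at 28 days. In PB livers the SD of Fgg was 0.0742 at 90 days against 0.0316 at 28 days. Fga measured 14.27, 14.15, 13.90, 14.09 and 14.18 in PB livers, against 14.27, 14.22, 14.24, 14.29 and 14.28 in CMC livers. Fgb measured 14.53, 14.46, 14.34, 14.33 and 14.45 in PB livers, against 14.52, 14.50, 14.65, 14.60 and 14.56 in CMC livers. Most PB livers were below the CMC livers, and 1 PB liver lay within their range for each gene. The averaged PB effect was -0.12 ± 0.11 for Fga (SE, limma adjusted p = 0.757), and -0.09 ± 0.08 for Fgb (limma adjusted p = 0.750). Without the 2 low PB arrays these were 0.00814 and -0.0129. For Fgg it was -0.04 ± 0.05 with an interval of -0.13 to 0.06, the tightest of the 34 members (limma adjusted p = 0.793). These probe sets are among the brightest measured, and RMA values near the top of the range can understate differences.

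The other clotting genes had averaged PB effects between -0.23 and 0.08. Those of the contact system were F12 (factor XII), at -0.23 ± 0.28 (SE), Klkb1 (prekallikrein), at -0.14 ± 0.24, and Kng1 (kininogen), at -0.01 ± 0.07. Without the 2 low PB arrays F12 was at 0.141 and Klkb1 at 0.16. F10 and F13b were the highest clotting genes, at 0.08 each. F10 encodes factor X and F13b the carrier subunit of factor XIII. F10 reached an unadjusted p of 0.00929 when the first component entered the fit as a covariate, a setting chosen after the data were seen, with an effect of 0.197. Its limma adjusted p was then 0.345. In that fit 2 of 34 members had an unadjusted p under 0.05, and the share of all genes was not counted. The other was Serpinf2, an inhibitor gene, with an effect of 0.146 (limma unadjusted p = 0.0374). Without the covariate, the dimmer F10 probe sets had averaged effects of 0.0499 and -0.0131.

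Among the inhibitors, Serping1, the C1 inhibitor that restrains both complement and the contact system, had the smallest p. It measured 13.16, 12.64, 13.04, 13.07 and 10.87 in PB livers at 28 days, against 12.19, 13.15, 11.999, 12.69 and 13.72 in CMC livers. At 90 days it measured 13.02, 13.09, 11.78, 12.48 and 13.07 in PB livers, against 12.74, 13.16, 13.35, 13.33 and 13.20 in CMC livers. The lowest PB livers were again replicates 5 and 3, and the highest liver of all was CMC 28 d replicate 5. The averaged effect was -0.33 ± 0.27 (SE), with an interval of -0.90 to 0.24 (limma adjusted p = 0.723). Without the pair of low PB arrays it was -0.00634.

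Plasminogen and antithrombin showed the same livers at the low end. Plg measured 14.02, 13.82, 14.15, 14.19 and 12.62 in PB livers at 28 days, against 13.45, 14.06, 13.40, 14.02 and 14.23 in CMC livers. At 90 days Plg measured 14.20, 14.37, 13.21, 13.94 and 14.13 in PB livers, against 13.98, 14.26, 14.31, 14.16 and 13.97 in CMC livers. Apart from the 2 low arrays the PB livers lay within or close to the range of the CMC livers, and the averaged effect was -0.12 ± 0.18 (SE, limma adjusted p = 0.826), or 0.118 without those arrays. Serpinc1, which encodes antithrombin, measured 14.35, 14.32, 14.42, 14.41 and 13.72 in PB livers at 28 days, against 14.23, 14.41, 14.04, 14.27 and 14.33 in CMC livers. At 90 days Serpinc1 measured 14.32, 14.35, 14.20, 14.33 and 14.37 in PB livers, against 14.41, 14.42, 14.43, 14.36 and 14.33 in CMC livers. Its averaged effect was -0.04 ± 0.08 (SE), with an interval of -0.20 to 0.11 (limma adjusted p = 0.844), and 0.0358 without the low arrays. The other 4 genes of this role, Serpind1 (heparin cofactor II), Serpinf2 (the plasmin inhibitor), Proc (protein C) and Pros1 (protein S), had averaged effects between -0.07 and 0.06.

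C9, the pore-forming subunit of the terminal complex, had the smallest p of all 34 members. It measured 13.67, 13.81, 13.57, 13.54 and 13.44 in PB livers at 28 days, against 14.08, 13.80, 13.90, 13.36 and 14.07 in CMC livers. The 90-day values of C9 were 13.77, 13.56, 13.63, 13.07 and 12.99 in PB livers, against 13.81, 13.19, 13.45, 14.10 and 13.81 in CMC livers. At 28 days 3 CMC livers exceeded every PB liver, and at 90 days the 2 lowest PB livers were below every CMC liver, but the groups overlapped at both durations. The averaged effect was -0.25 ± 0.13 (SE), with an interval of -0.51 to 0.01 (unadjusted p = 0.0587, limma adjusted p = 0.72). It stayed below 0 in all 32 alternative fits, between -0.311 and -0.180, with a smallest adjusted p of 0.486. C9 did not follow the component on which the low arrays lay (within-group r = -0.0124), and without those arrays its effect was -0.258.

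Hc, which encodes complement C5, had the next smallest p. It measured 12.89, 12.28, 12.79, 12.61 and 11.40 in PB livers at 28 days, against 12.22, 12.33, 12.60, 12.62 and 13.63 in CMC livers. The 90-day values of Hc were 12.86, 13.57, 11.48, 12.76 and 12.71 in PB livers, against 13.23, 13.36, 13.46, 13.45 and 12.93 in CMC livers. At 90 days 4 PB livers were below all 5 CMC livers, and replicate 2 was above them all. The averaged effect was -0.45 ± 0.23 (SE, unadjusted p = 0.0677, limma adjusted p = 0.72). It was -0.173 without the pair of low PB arrays and -0.328 without CMC 28 d replicate 5.

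Cfi, the protease that inactivates C3b and C4b, measured 13.57, 13.51, 13.51, 13.53 and 13.10 in PB livers at 28 days, against 13.49, 13.56, 13.29, 13.41 and 13.88 in CMC livers. After 90 days Cfi measured 13.46, 13.27, 13.27, 13.45 and 13.46 in PB livers, against 13.46, 13.48, 13.66, 13.62 and 13.56 in CMC livers. The 90-day groups overlapped only at their edges. The averaged effect was -0.13 ± 0.08 (SE, limma adjusted p = 0.72), without the 2 low PB arrays it was -0.0703, and without CMC 28 d replicate 5 it was -0.0827.

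Masp1, read from the brightest of its 5 probe sets, varied most between livers. It measured 10.92, 10.51, 10.90, 11.34 and 6.84 in PB livers at 28 days, against 9.50, 11.21, 9.85, 10.83 and 11.44 in CMC livers. At 90 days Masp1 measured 11.16, 11.85, 7.99, 10.20 and 11.27 in PB livers, against 10.92, 11.28, 11.19, 11.21 and 10.93 in CMC livers. The 2 low PB livers lay over 2 log2 units below the rest of their groups, and CMC replicates 1 and 3 at 28 days were low too. The averaged effect was -0.54 ± 0.51 (SE), with an interval of -1.60 to 0.53 (limma adjusted p = 0.751). In the dimmer Masp1 probe sets it was smaller, at -0.269, -0.173, -0.0556 and -0.0047. The other 10 complement genes had averaged effects between -0.35 and 0.11. C8a (C8 alpha chain), C2 (a protease of the classical and lectin routes) and C6 (a terminal component) were the lowest of these, at -0.35, -0.30 and -0.28. Without the 2 low PB arrays they were at -0.0023, -0.0488 and 0.0176, and Masp1 was at 0.183. Masp2, the other lectin protease, was the highest, at 0.11, but its second, dimmer probe set was at -0.15.

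**Figure D2:**
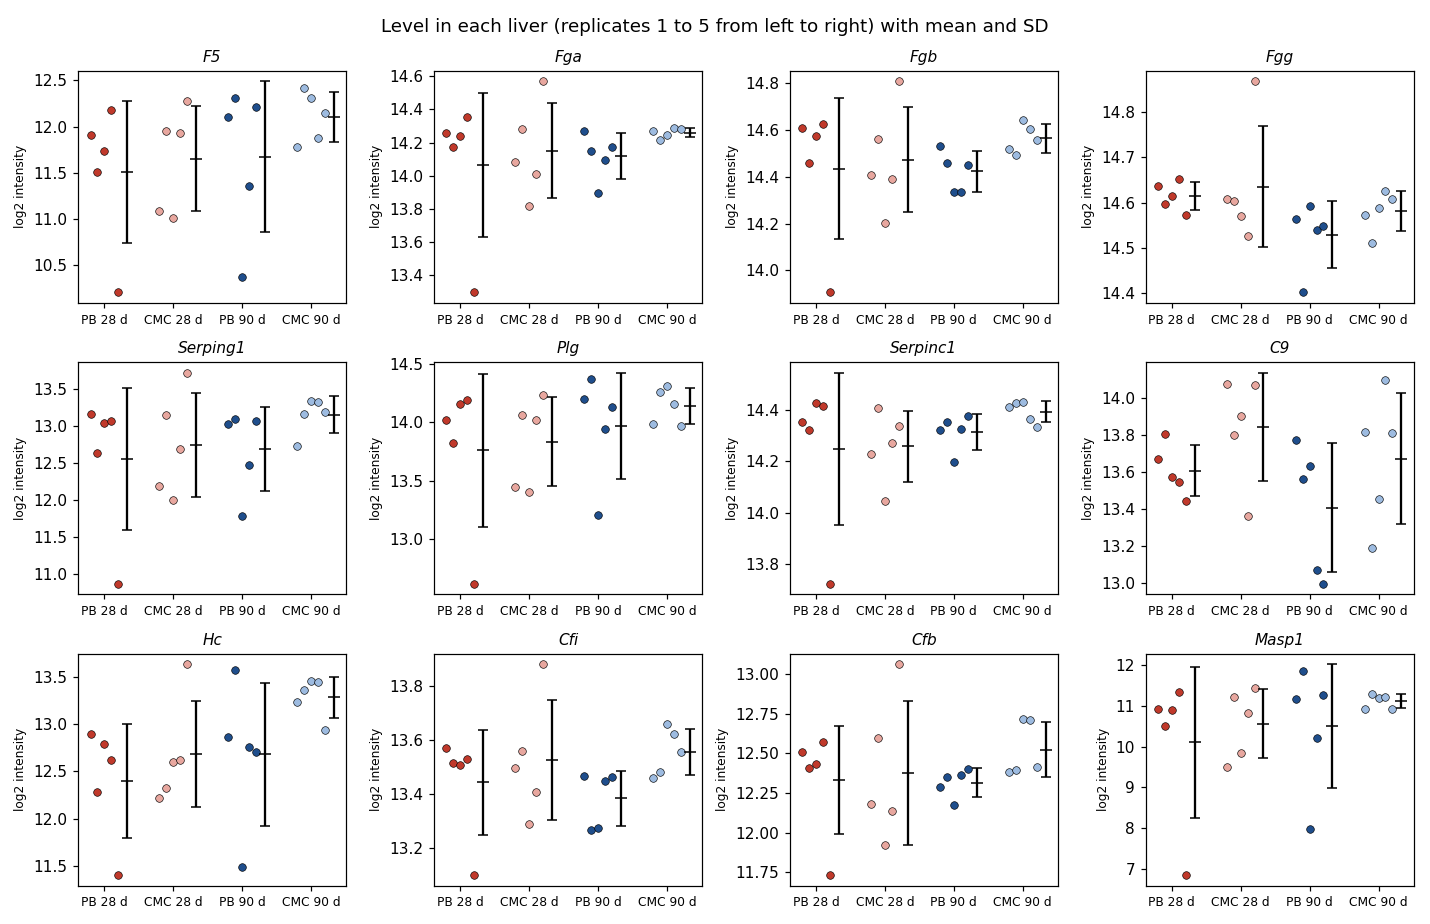
Log2 intensity (y axes, different in each panel) in each of 20 livers for 12 genes, with replicates 1 to 5 from left to right within PB 28 d, CMC 28 d, PB 90 d and CMC 90 d, and black bars for the mean ± SD (n = 5). PB 28 d replicate 5 is far below its group in most panels, and C9 and Fgg are without that drop.

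The PB effect was not shown to differ between the durations for any member. The difference of the 90-day and the 28-day effects called 0 of 34 members and 0.0% of all genes, and 0 members and 1.38% of all genes had an unadjusted p under 0.05. Its median over the members was -0.0653, with 6 members above 0, against 0.0117 and 52.3% above 0 over all genes. Each PB mean includes 1 of the low arrays. The members spread from -0.324 for Klkb1 to 0.166 for Mbl1, a mannose-binding lectin, and for C4bp.

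Duration alone also gave no call among the members. Between 90 and 28 days, 0 members were called in PB livers, where 0.00623% of all genes were, and 0 in CMC livers, where 0.0% of all genes were. An unadjusted p under 0.05 was found for 0 members in each, against 4.23% of all genes in PB livers and 5.69% in CMC livers. In CMC livers 24 members were above 0 and 10 below, where 45.8% of all genes were above 0, with a median of 0.14 against -0.0261 over all genes. All 7 inhibitor genes were above 0 there, by 0.07 to 0.41, with a median of 0.303. In PB livers 21 members were above 0 and 13 below, where 50.3% of all genes were above 0, with a median of 0.0824 against 0.0015. The largest vehicle differences were C6 at 0.65 and Hc at 0.60 upward, and Mbl1 at -0.34 downward (limma unadjusted p = 0.134, 0.080 and 0.069). Without the 2 low PB arrays, 8 members had an unadjusted p under 0.05 in this vehicle contrast and still 0 were called. That fit leaves the CMC means as they were and changes only the shared estimate of the spread. The share of all genes under 0.05 in it was not counted, so the 8 cannot be set against all genes. Age at sampling and the handling of each cohort cannot be told apart from duration. The vehicle arrays also differed on the first component, where all 5 at 90 days scored between 11.7 and 34.0. At 28 days replicates 1 and 3 scored -39.8 and -36.4, and replicates 2, 4 and 5 scored 18.5, 1.42 and 22.6. The part of this in the vehicle differences was not tested.

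Much of the spread of these genes between livers ran along 1 axis. For each gene, values were centred on their group mean and correlated with the likewise centred score on the first component. The members were among the genes that made this component, so the values are a description. Of the 34 members, 25 had r over 0.5, or 73.5%, against 27.6% of all genes. An r over 0.9 was reached by 10 members, or 29.4%, against 9.84% of all genes. An r below -0.5 was found in 4 members, or 11.8%, against 34.5% of all genes. All 34 kept their sign without PB 28 d replicate 5 and PB 90 d replicate 3, although r over 0.5 was then found in 19 and not 25.

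All 7 inhibitor genes had r over 0.5 and their median r was 0.953. The median was 0.849 in clotting genes and 0.649 in complement genes. The members nearest the axis were Masp1 (r = 0.984), F12 (0.981), Plg (0.98), C8a (0.969), F5 (0.967), Proc (0.962) and Klkb1 (0.96). These 7 held r between 0.865 and 0.977 without the 2 low arrays. Fgg (r = 0.0863), C9 (-0.0124) and F9, factor IX (0.288), lay off it. On the negative side were Mbl1 (-0.75), Masp2 (-0.682), F13b (-0.582) and C8g, the C8 gamma chain (-0.548). By within-group permutation of the arrays with adjustment over the 34 members, 24 positive and 4 negative relations had an adjusted p under 0.05. The 4 were Mbl1, Masp2, F13b and C8b (r = -0.472), while C8g had an adjusted p of 0.0568 by permutation. For the 7 named nearest the axis, Spearman rho was 0.91 to 0.977 and the permutation adjusted p at most 5.67e-05. The mean level of the 10 hepatocyte markers, from albumin to urea-cycle enzymes, ran from 12.92 to 13.57 in PB livers and from 13.29 to 13.80 in CMC livers at 28 days. At 90 days it ran from 13.08 to 13.86 in PB livers and from 13.47 to 13.72 in CMC livers. None of the 10 was at background, and PB 28 d replicate 5 and PB 90 d replicate 3 were at 12.92 and 13.08.

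Marker lists of 9 cell types were set against the same score, with group means removed and p-values adjusted over the 9. Most marker genes also entered the component, so these values too are a description. Of all genes taken singly, 27.6% had r over 0.5 and 34.5% had r below -0.5. Hepatocyte markers followed it with r = 0.891 and rho = 0.753 (permutation adjusted p = 0.000382 and 0.00418), and r = 0.778 without the 2 low arrays. Markers of other cells ran against it: 8 lymphocyte genes had r = -0.93 and rho = -0.892 (permutation adjusted p = 4.5e-05 for both), and -0.848 without the 2 arrays. The 7 platelet genes had r = -0.807 and rho = -0.881 (permutation adjusted p = 4.5e-05 for both), and -0.778 without them. The 10 Kupffer cell and macrophage genes had r = -0.683 and rho = -0.738 (permutation adjusted p = 6e-05 and 9e-05), and -0.635 without them. Of the lymphocyte genes Cd3g was at background, and the mean level of the list was 4.91 to 5.46 in PB and 4.81 to 5.13 in CMC livers at 28 days. The other lists were cholangiocyte markers, with r = 0.683 and rho = 0.606 (permutation adjusted p = 0.012 and 0.0149) but 0.384 without the 2 arrays, and 4 lists with r between -0.211 and 0.221. The hepatocyte list was bright and the lymphocyte list dim, and the 2 low arrays had a narrower middle range of values. The parts of cell content and of this narrower range in the marker and member values were not tested.

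**Figure D3:**
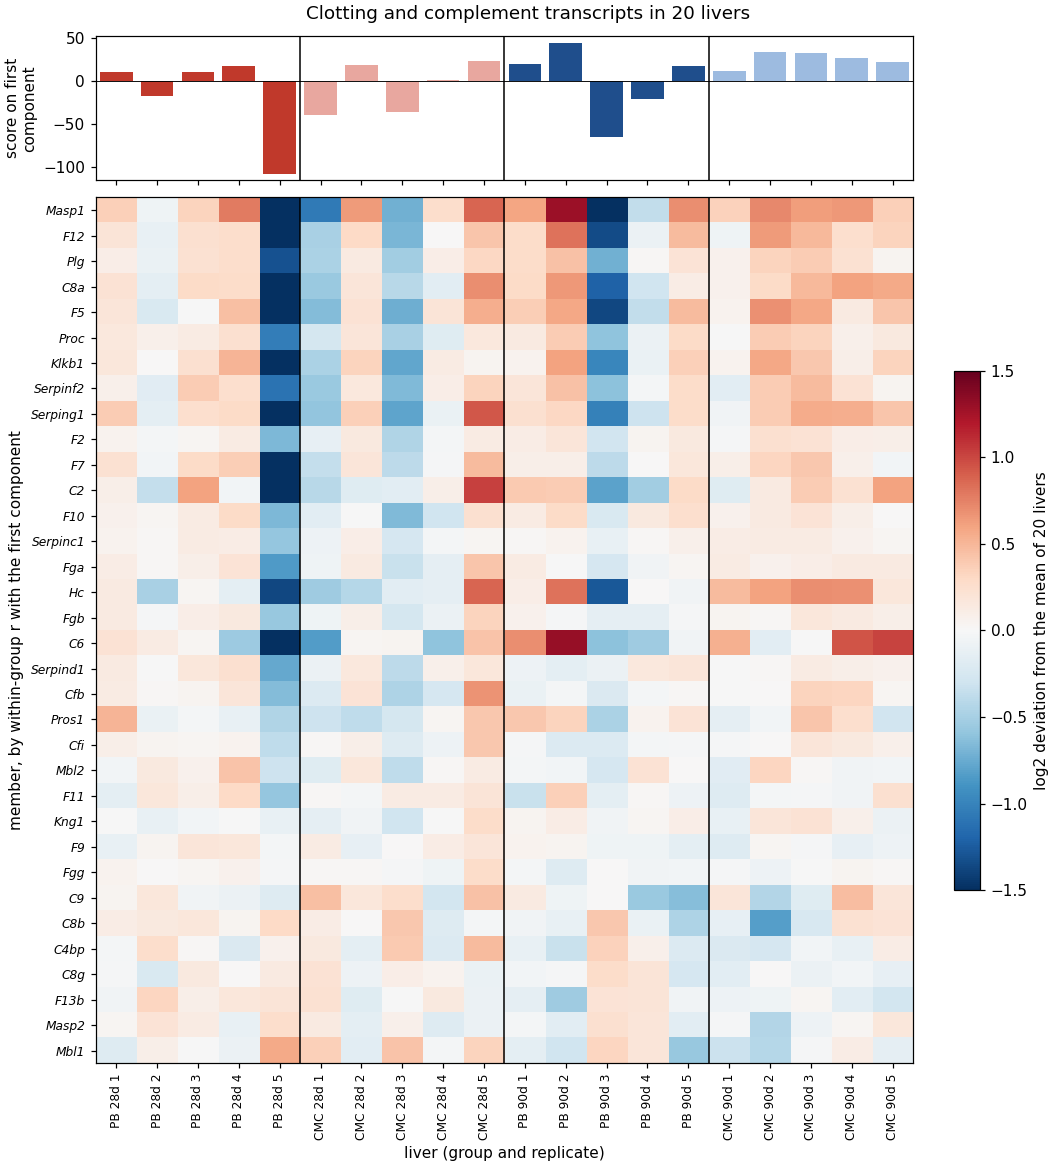
Log2 deviation of 34 genes (rows, ordered by within-group r with the first component) from their mean over 20 livers (columns, by group and replicate), with colours limited to 1.5 units either way, under bars of each liver's score on that component. Blue columns for most genes mark PB 28 d replicate 5 and PB 90 d replicate 3, and the rows at the bottom run the other way.

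Within-group SDs of the members ran from 0.0816 for Fgg to 1.27 for Masp1 in log2 units. Their median was 0.289, against 0.273 for all genes. Without the 2 low arrays, the SDs ran from 0.0806 to 0.583.

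A vehicle liver stood out in the other direction. CMC 28 d replicate 5 was the highest of all 20 livers for 12 of 34 members, or 35.3%, against 2.72% of all genes. These were F7, Fga, Fgb, Fgg and Kng1 of the clotting genes, the inhibitor Serping1, and C2, Hc, C8a, Cfb, Cfi and C4bp (C4b-binding protein) of complement. The same liver was the highest of 20 for 17 of 22 acute-phase genes. Saa2, serum amyloid A2, was at 14.78 there, and at 13.54 in both CMC 90 d replicates 3 and 4. In the other 17 livers it lay between 7.33 and 9.90.

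Cfb, factor B of the alternative route, was described for this liver after its values were seen. Cfb measured 12.51, 12.41, 12.43, 12.57 and 11.73 in PB livers at 28 days, against 12.18, 12.59, 11.92, 12.13 and 13.06 in CMC livers. At 90 days it measured 12.29, 12.35, 12.17, 12.36 and 12.40 in PB livers, against 12.38, 12.39, 12.72, 12.71 and 12.42 in CMC livers. The 3 highest values were those of the 3 livers with high Saa2. Cfi was highest in the same 3 livers, while the values of Fgg and C4bp in CMC 90 d replicates 3 and 4 lay within the range of the livers with low Saa2. Without that liver the 28-day PB effects turned above 0 for Fga (0.0172), Fgb (0.0454), Fgg (0.0375), Cfb (0.124) and Cfi (0.00651), with limma adjusted p = 1 for each. High Saa2 was found in 0 of 10 PB livers, against 3 of 10 CMC livers, a count read after the values were seen and not tested.

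**Figure D4:**
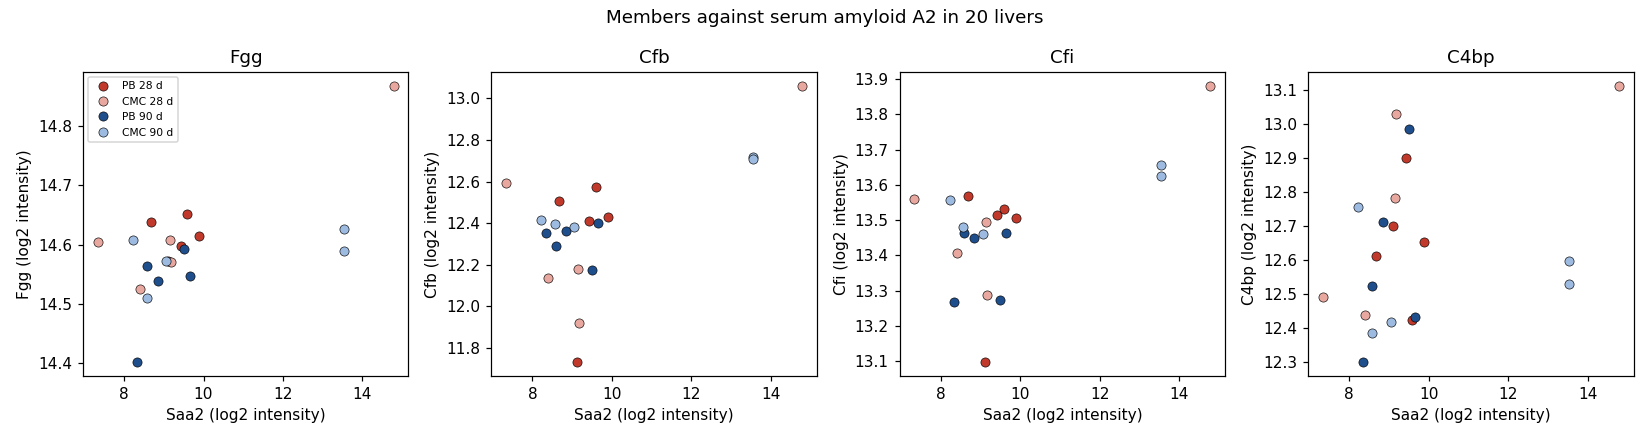
Log2 intensity of Fgg, Cfb, Cfi and C4bp (y axes) against that of Saa2 (x axes) in 20 livers, coloured by group. The 3 livers at the right of each panel are CMC 28 d replicate 5 and CMC 90 d replicates 3 and 4, and the first of these is the highest point in all 4 panels.

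Subunits and neighbours were set against each other over the 20 livers, after group means were removed, in 11 pairs with a within-group permutation test of 100000 resamples (two-sided, adjusted over the 11). Fga and Fgb moved together most closely, with Pearson r = 0.974 and Spearman rho = 0.937 (permutation adjusted p = 0.00011 for both), and r = 0.875 without the 2 livers farthest from the median of Fga. Fga and Fgg had r = 0.486 and rho = 0.468 (permutation adjusted p = 0.039 and 0.0612), and r fell to 0.099 without the 2 farthest livers. Fgb and Fgg had r = 0.538 and rho = 0.478 (permutation adjusted p = 0.0326 and 0.0612), and 0.178 without them. The 2 farthest livers in both cases were PB 28 d replicate 5 and CMC 28 d replicate 5. Which livers were left out decided the value: without the 2 low PB arrays r was 0.778 for Fga and Fgg (permutation adjusted p = 0.0293) and 0.733 for Fgb and Fgg (permutation adjusted p = 0.058). Within single groups of 5, Fga and Fgg had r = 0.836 in PB and 0.858 in CMC livers at 28 days, and -0.29 in PB and 0.89 in CMC livers at 90 days. F7 and F10, neighbouring genes for the factors that start and join the chain, had r = 0.896 and rho = 0.899 (permutation adjusted p = 0.00033 and 0.00011), and 0.812 without the 2 farthest. F11 and Klkb1, related contact proteases, had r = 0.653 and rho = 0.462 (permutation adjusted p = 0.039 and 0.0834), and 0.121 without the 2 farthest. C2 and Cfb, neighbours and related proteases, had r = 0.689 and rho = 0.522 (permutation adjusted p = 0.0238 and 0.0612), and 0.156 without them, so both relations rest on those livers.

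The 3 chains of C8 gave no pair past the threshold. C8a measured 13.13, 12.76, 13.20, 13.18 and 10.98 in PB livers at 28 days, where C8b measured 12.02, 12.06, 12.09, 11.95 and 12.21. C8a was lowest in replicate 5, which was the highest of these livers for C8b. C8a and C8b had r = -0.31 and rho = -0.392 (permutation adjusted p = 0.101 and 0.0891), and 0.00623 without the 2 farthest livers. C8a and C8g had r = -0.53 and rho = -0.513 (permutation adjusted p = 0.0718 and 0.0697), and -0.32 without them. C8b and C8g had r = 0.338 and rho = 0.388 (permutation adjusted p = 0.133 and 0.106), and 0.433 without the 2 farthest. With the score on the first component removed as well, r was 0.675 for C8a and C8b. It was then 0.00789 for C8a and C8g and 0.107 for C8b and C8g, and these values were not tested. The GTTAAT core printed above is in the promoters of Fga and Fgb and also in those of C8a and C8b.

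The lectin route gave the only negative pair past the threshold. Masp1 and Masp2 had r = -0.644 and rho = -0.764 (permutation adjusted p = 0.00011 and 0.000183), and -0.686 without the 2 farthest livers. This direction belongs to 1 of the 2 Masp2 probe sets. The dimmer one had r = 0.701 with Masp1 and 0.748 with the component, where the one used had -0.644 and -0.682. Mbl1 and Mbl2, both mannose-binding lectins, had r = -0.501 and rho = -0.478 (permutation adjusted p = 0.0542 and 0.0697), and -0.388 without the 2 farthest. Neither negative r remained as large with the score on the first component removed as well. It was then 0.207 for Masp1 and the Masp2 probe set used, and -0.0302 for Mbl1 and Mbl2, without a test. Kng1 also differed by probe set, with r = 0.543 with the component in the one used and 0.931 in the other. So did Masp1, whose r with group means kept was 0.973 in the probe set used. In the dimmer ones it was 0.879, 0.843, 0.496 and -0.412, the last from a probe set above background on 8 arrays.

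**Figure D5:**
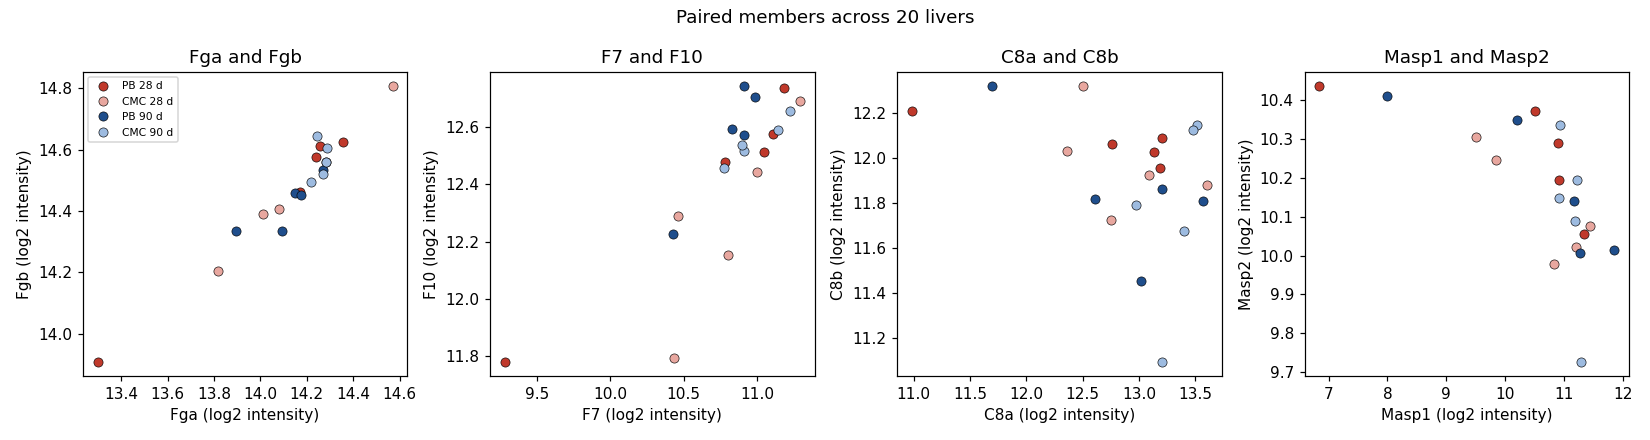
Log2 intensity of 4 pairs of genes against each other in 20 livers, coloured by group: Fga and Fgb, F7 and F10, C8a and C8b, and Masp1 and Masp2. The first 2 pairs lie along rising lines, C8a and C8b form a cloud, and Masp2 is highest in the livers with the lowest Masp1.

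Other genes of these systems were read from lists chosen with earlier results of these data known. Of 28 other clotting and fibrinolysis genes, 0 were called at either duration or in the average. Itih3, an inter-alpha-trypsin inhibitor heavy chain, had the smallest p, with an averaged effect of -0.62 ± 0.24 (SE, limma adjusted p = 0.68). Plat, tissue plasminogen activator, followed with 0.37 ± 0.15 (limma adjusted p = 0.711). Of 6 genes of the vitamin K cycle, which readies several clotting factors for calcium binding, and of 23 other complement genes, 0 were called, with medians in the average of -0.0948 and -0.0295 against 0.0229 over all genes. Of 19 hepatic transcription factors 0 were called, with 16 below 0 and a median of -0.449. Esr1, the oestrogen receptor, was lowest in p there, with -0.77 ± 0.23 (SE, limma adjusted p = 0.533). Of 20 genes of the secretory pathway 0 were called, and 18 were below 0 with a median of -0.285. Both of these lists were read in the average, where 55.8% of all genes were above 0. Their medians include the 2 low PB arrays and were not taken without them. Of the 22 acute-phase genes, Orm3, an orosomucoid, rose at 90 days, to 8.59 ± 0.45 in PB livers against 6.15 ± 0.40 in CMC livers (SD, n = 5 each), by 2.45 ± 0.32 on the log2 scale (SE, limma adjusted p = 0.000435). Among markers of other cell types, S100a8, from the neutrophil list, was the only gene called. It was higher by 6.28 log2 units at 90 days (limma adjusted p = 0.0163) and by 5.67 in the average (limma adjusted p = 0.00067). The 8 neutrophil genes had a median of only 0.114 at 90 days, with 5 above 0 and 3 below, and of 0.126 in the average.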

How the data were processed

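The deposited table held log2 signal intensities that the authors made with RMA, per the submitters' processing notes, from biotin-labelled RNA on Affymetrix 3' arrays. Neither a version of RMA nor a genome build was found: both are not given in the sources used here. Differences of very dim or very bright probe sets come out smaller after RMA. The values were used as deposited, with 0 columns left unused. Gene symbols came from the platform annotation, and 34945 of 45037 probe sets had 1 symbol. A gene was tested when it exceeded the array's 25th percentile on at least 5 arrays, which left 16054 of 18193 genes. Arrays give no counts, so their number, 5 per group, limits the precision.

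The groups and replicate numbers were read from the sample titles, and each array came from a separate mouse. All 20 arrays entered 1 limma fit (limma 3.58.1, R 4.3.3) of a separate mean for each group, where the variance prior followed intensity and 16 residual degrees of freedom remained. It gave 6 contrasts, with two-sided tests and Benjamini-Hochberg adjustment over all genes tested. Intervals are 95% intervals of this model. Pairs and the first component were read on values centred on group means, with 100000 permutations within groups. The script was tested on simulated data. Values in every liver are given for the 3 genes of each role with the smallest p in the averaged PB effect and for the gene of each role with the largest SD among vehicle livers. From each other list the called genes, or else the 2 genes with the smallest p, could be named, and further genes were chosen after their values were seen. The members and all lists were chosen with earlier results of these data known. Promoters are those of RefSeq (GRCm38.p6), and plots were made in matplotlib 3.10.9 with Python 3.11.15.

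The alternatives were removal of each array in turn or of both low PB arrays, a replicate block, cyclic loess, centring of arrays on their 75th percentile, array weights, fits of only the groups compared, no intensity trend, no filter or 1 at the 50th percentile, and probe sets averaged per gene, tested singly or without the _x_at and _s_at kinds. The first component as a covariate and the marker lists set against it were added after the data were seen.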

Additional observations from a re-analysis of the deposited data

Results flagged for a closer look

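In each group of 5 livers, the highest or lowest liver was singled out when its gap to the nearest liver was more than 0.71 of the group's range, which chance does in about 1 of 20 groups. Of 136 gene-by-group sets, 21 met this, against 6.8 at the chance rate, and the genes are not independent of each other. PB 28 d replicate 5 accounted for 16 of the 21, each time as the lowest liver. Its values were 13.15 for F2 (prothrombin), 9.283 for F7, 11.78 for F10, 9.772 for F12, 13.3 for Fga and 13.91 for Fgb. They were 12.62 for Plg, 13.72 for Serpinc1, 11.62 for Serpind1, 10.87 for Serping1, 11.85 for Proc and 10.26 for Klkb1. In complement they were 10.98 for C8a, 11.73 for Cfb, 13.1 for Cfi and 6.843 for Masp1. PB 90 d replicate 3 was low for F7 at 10.43 and for Serpinc1 at 14.2. PB 90 d replicate 2 was low for Fgg at 14.4. CMC 28 d replicate 5 was high for Fgg at 14.87 and for Hc at 13.63.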

How the results depend on the processing

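The count of called members was 0 in all 6 contrasts under every alternative run. For the PB effects at 28 days, at 90 days and in the average, the smallest limma adjusted p of any member was 0.345. For the other contrasts it was not collected. Signs were less stable: 7 of 34 members kept the sign of the PB effect in every alternative at 28 days, 9 at 90 days and 10 in the average. Without the 2 low PB arrays the averaged medians were 0.0379 for clotting, 0.118 for inhibitors and -0.0195 for complement genes. With the first component as a covariate the 90-day medians were 0.0603, 0.0883 and -0.0186 in the same order, and 21 of 34 members were above 0. After centring on the 75th percentile the 90-day medians were 0.00774, -0.0471 and -0.0963. At 28 days the clotting and inhibitor medians were 0.0144 and 0.0386 after centring on the 75th percentile and 0.0687 and 0.132 with array weights. Over all genes, PB and CMC livers of the same replicate number had correlations between -0.599 and 0.36 after group means were removed. These cannot decide whether the numbers pair mice, because the first component carries much of the spread. With the replicate block 0 members were called. Over all genes, the 8 calls at 28 days became 4 with only the groups compared and 17 with array weights or the component as a covariate. The 1 call of PB at 90 against 28 days became 0 with only the groups compared and 2 with array weights, cyclic loess or without the 2 arrays, and leaving out 1 array gave 1 to 2. Leaving out 1 array moved the 28-day medians between -0.108 and 0.109 for clotting, -0.122 and 0.213 for inhibitors, and -0.18 and 0.0307 for complement genes, and the averaged medians between -0.114 and -0.00434 for clotting, -0.111 and 0.0501 for inhibitors, and -0.171 and -0.0625 for complement genes. Without the 2 arrays, r within pairs was 0.733 for Fgb and Fgg, 0.316 for F11 and Klkb1 and 0.518 for C2 and Cfb, none then past the threshold, while Fga and Fgg at 0.778 remained past it. After centring on the 75th percentile, r was 0.0405 for Fga and Fgg, 0.299 for Fgb and Fgg, 0.236 for F11 and Klkb1 and 0.435 for C2 and Cfb, again not past it, while -0.534 for C8a and C8b, -0.831 for C8a and C8g and 0.639 for C8b and C8g passed it. The cause of these shifts was not tested. The number of mice, 5 per group, limits what small effects could be seen. Bright probe sets can understate differences, and saturation was not measured.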

Other observations

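PB 90 d replicate 2 was the highest of 20 livers for 8 members, F10, F11, F12, Plg, Proc, Klkb1, C6 and Masp1, or 23.5% of members against 10.7% of all genes. It also had the highest score on the first component, 44.2. In the secretory pathway, Pdia3, a disulphide isomerase of the endoplasmic reticulum, averaged 11.53 ± 0.25 in PB livers and 11.89 ± 0.26 in CMC livers at 28 days (SD, n = 5 each). Its averaged PB effect was -0.38 ± 0.13 (SE, limma adjusted p = 0.622). Among the transcription factors, Cebpb averaged 10.23 ± 1.02 in PB livers and 10.81 ± 0.77 in CMC livers at 28 days, with an averaged effect of -0.67 ± 0.31 (SE, limma adjusted p = 0.72).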
